A study of Mus musculus with 4 samples.

Results

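The genes of the mitochondrial protein import machinery were taken as every gene whose symbol starts with Timm or Tomm followed by a digit, and were kept if detected. Of 22 such genes with a named probe, 21 were detected on at least 1 array, among 8674 detected genes in all, and 1, Timm8a2, was on the array but was not detected on any. A probe counted as detected at a detection p-value of at most 0.01. By role, 6 of the 21 act at the outer membrane (Tomm40, Tomm40l, Tomm22, Tomm70a, Tomm6 and Tomm7), 8 at the inner membrane (Timm23, Timm17a, Timm17b, Timm50, Timm21, Timm44, Timm22 and Timm29) and 6 are small proteins of the intermembrane space (Timm8a1, Timm8b, Timm9, Timm10, Timm10b and Timm13). The remaining gene, Tomm34, encodes a cytosolic co-chaperone and is given separately. Tomm20, Tomm20l and Tomm5 were paired with no probe in the annotation used and are not analysed here.

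Expression was profiled on Illumina bead arrays in CL4188, a conditional mouse MYC lymphoma line of FVB/N background in which doxycycline (DOX) turns MYC off. The retroviral vector MSCV was carried either empty (control cells) or holding the cluster of microRNA genes named miR-17-92 (miR-17-92 cells). Both kinds of cell were measured without DOX, with MYC on, and after 48 hours in DOX at 20 ng/ml, with MYC off. The 4 groups hold 1 array each, all from 1 cell line, so a difference within a line has no replicate check and is given without a p-value. A DOX effect shared by both lines was tested with the lines as a pair.

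Almost all mitochondrial proteins are made in the cytosol and cross the outer membrane through the TOM complex. From there, proteins with a presequence pass the TIM23 complex of the inner membrane, driven by a matrix Hsp70 motor, while carrier proteins are handed by small chaperones of the intermembrane space to the TIM22 complex. The small chaperones are themselves imported and trapped by oxidative folding. MYC is known as an activator of many genes of mitochondrial biogenesis and binds the E-box, with the letters CACGTG.

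The arrays read 45281 probes each and detected between 13251 and 14864 of them. After DOX the Myc probe was undetected in both lines, lower by at least 6.28-fold in control and 5.80-fold in miR-17-92 cells. Of 6 T-cell markers measured, 5 were detected without DOX and all 6 with it. Of 11 measured markers of B, myeloid, erythroid and stromal cells, none was detected without DOX and only Itgam, a myeloid integrin, with it, at log2 7.43 and 6.66 against 5.12 and 4.83 without DOX. Its part in the results was not tested. The arrays without DOX shared 1 slide and those with DOX another, so in both DOX comparisons the agent cannot be told apart from the slide. In bulk RNA a smaller share of cells of a kind and less RNA per cell cannot be told apart either.

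With MYC off in the control cells, 12 of the 21 import genes were at least 2-fold lower and 1 was at least 2-fold higher, with a median log2 ratio of -1.05. Among all detected genes 18% were at least 2-fold lower and 19.9% higher, with a median of 0.06. Of all genes past 2-fold 52.4% were higher, and this share was 62.2% with median scaling and 40.1% with the authors' processed values, while the members 2-fold lower numbered 9 and 11. One of the 12, Timm23, was detected on neither control array, so 11 of the 19 members detected on both arrays were 2-fold lower by measured signal. The 1 member higher, Timm17b, was undetected without DOX, so 0 of these 19 were 2-fold higher. In the miR-17-92 cells 5 of 21 were at least 2-fold lower and 1 higher, with a median of -0.71, against 12.8% lower and 14.8% higher among all genes and a median of 0.09. The share of higher was 53.6%, with 66.3% and 41.3% under the same alternatives, where 6 and 7 members were 2-fold lower. The signs matched in both lines for 18 members below 0 and 2 above it, and the matching share over all genes was not computed. With line and DOX as terms of 1 limma fit over the 4 arrays, 12 of the 21 members fell with DOX and 1, Timm17b, rose, at an adjusted p of at most 0.05 (Benjamini-Hochberg over 8674 genes), while 17.7% of all genes fell and 20.8% rose. Those that fell were Timm8a1 (log2 -3.12, 95% interval -3.94 to -2.30), Timm9, Timm10, Tomm40, Tomm70a, Tomm6, Tomm22, Timm50, Timm17a, Timm23, Timm44 and Timm21. The fit has 1 residual degree of freedom per gene, and limma combined each gene's variance with one pooled over all genes (6.65 prior degrees of freedom). The pooled part therefore outweighs the gene's own in these intervals and p-values. Both parts come from the difference between the lines, not from a spread between replicates. The fit carries the slide in the DOX term, and Timm23 was detected on 1 of its arrays. The difference between probes of the same gene gave a yardstick for these ratios. Probes of a gene share the same arrays, so it leaves out differences between cultures, RNA samples, arrays and slides. Over 3502 genes with several detected probes, the spread per probe was log2 0.33 for DOX in the control cells and 0.32 in the miR-17-92 cells.

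**Figure D1:**
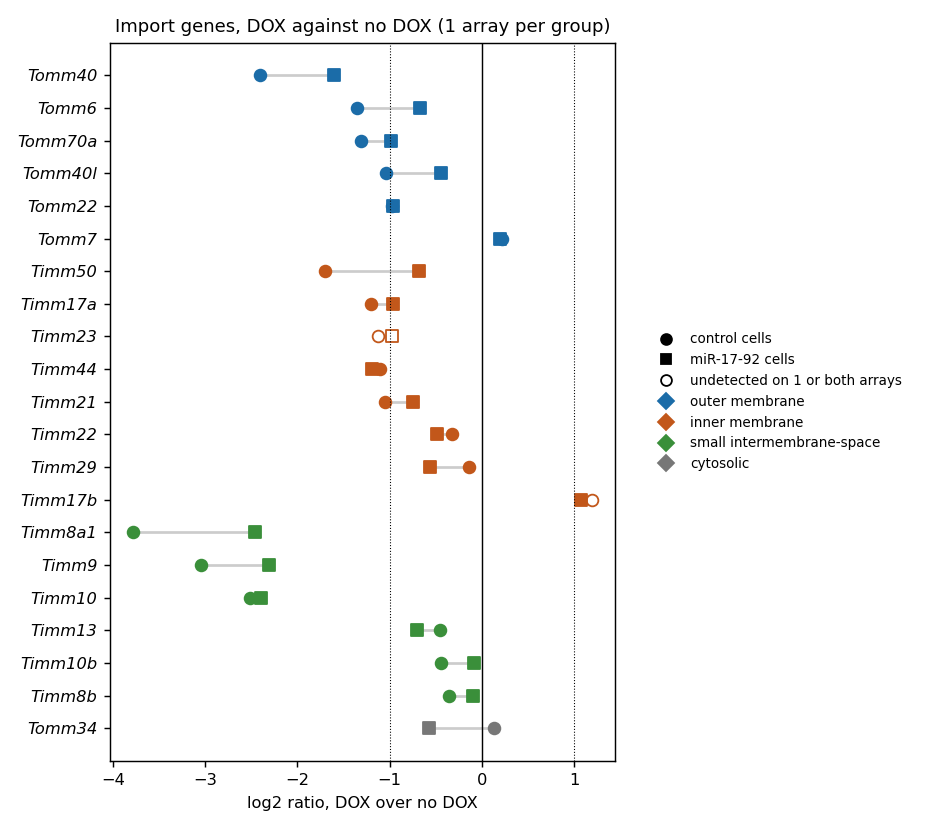
Log2 ratio of DOX over no DOX for each import gene, ordered by class, in control cells (circles) and miR-17-92 cells (squares), 1 array per group. Open symbols mark a probe undetected on 1 or both arrays of the ratio, dotted lines mark 2-fold, and Timm8a1, Timm9 and Timm10 are the lowest 3 in each line, from -3.78 to -2.51 in control and from -2.46 to -2.31 in miR-17-92 cells.

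The small intermembrane-space genes held the lowest values of the machinery, and their DOX ratios differed widely. Timm8a1, Timm9 and Timm10 were at least 4.96-fold lower in both lines, while Timm13, Timm10b and Timm8b stayed within 2-fold in both. The Timm13 probe was dim, at log2 6.73 and 6.96 without DOX, and a fall of 4.96-fold would have left it undetected. Timm9 and Timm10 encode the partners of the hexameric chaperone that escorts carrier proteins. Timm8a1 encodes the mouse counterpart of human TIMM8A, the gene mutated in deafness-dystonia syndrome, whose protein forms a second hexamer with that of Timm13.

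The normalized log2 intensity of Timm8a1 was 13.58 without DOX and 9.80 with DOX in the control cells, and 13.70 and 11.24 in the miR-17-92 cells. Both arrays without DOX were high and both with DOX were low, and the control array with DOX was the lowest. With DOX it was 13.8-fold lower in control cells, at rank 58 from the lowest of all 8674 genes, and 5.51-fold lower in miR-17-92 cells. Its single probe reads Timm8a1 by the annotation, and the probes of the paralogue Timm8a2 were undetected throughout. Probe sequences were not used here, so its specificity against Timm8a2 was not checked.

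Timm9 stood at log2 13.74 and 13.71 on the control and miR-17-92 arrays without DOX and at 10.68 and 11.39 on those with DOX. That is 8.31-fold lower for control cells (rank 133 from the lowest) and 4.96-fold lower for miR-17-92 cells. Its 4 probes gave DOX ratios between -3.56 and -2.78 in the control cells and between -2.79 and -2.31 in the miR-17-92 cells. The probe at -2.78 was dim and detected on 2 of 4 arrays. The others were detected on all 4 and gave between -3.56 and -3.05 in the control cells, so the loss of signal did not rest on 1 probe.

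Timm10 stood at log2 11.26 and 11.42 without DOX and at 8.75 and 9.02 with DOX, control cells first. Its 5.71-fold and 5.26-fold lower values were close between the lines, unlike those of Timm8a1. Timm13, at 6.73 and 6.96 without DOX and 6.27 and 6.26 with DOX, was a dim probe, 1.38-fold and 1.63-fold lower. Timm8b, which encodes a paralogue of the Timm8a1 protein, was bright on all arrays, at 12.88 and 13.11 without DOX and 12.52 and 13.00 with DOX. Its ratios were log2 -0.36 and -0.10, so the paralogues Timm8a1 and Timm8b differed widely in their DOX ratios. Timm10b, which encodes a subunit tied to the TIM22 complex in human cells, gave -0.45 and -0.09, and its other probes gave -0.66 and -1.01 in the control cells.

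Promoter windows of the members were searched for the E-box, and those of some small genes are shown. RefSeq windows of 300 bases (build GRCm38.p6, 250 bases before the transcript start and 50 after it) were at hand for 18 of the 21 detected members, in 20 windows. CACGTG, which reads the same on both strands, occurred in 3 of the 18, and these were Timm8a1, Timm9 and Timm10. Timm9 has it with the first base at -58 and at -1 from the start, Timm8a1 at -236 and 25, and Timm10 at 29. It is in 15% of the members' windows, in 10.5% of the windows of all detected genes and in 7.15% of all 32851 windows, so the count itself lies near the background. Tomm40, the next lowest member by its brightest probe, has none, and is shown beside these 3 genes. The windows of Timm50, Tomm70a, Tomm6, Tomm22, Timm17a, Timm23 and Timm44, which also fell in the fit over both lines, have none either. The core letters CGCATGCGC of the NRF1 motif, searched on both strands, occurred in 1 member window, that of Timm13, which is 5% of the members' windows against 3.94% of the windows of all detected genes and 1.75% of all windows. A match is a description of the letters only, and whether MYC bound there was not tested.

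The windows run 5′ to 3′ on the gene's strand, with E-boxes or the NRF1 core in capitals. They lie at chrX:134541621-134541920 on the minus strand (Timm8a1), chr12:71136626-71136925 on the minus strand (Timm9), chr2:84826771-84827070 on the plus strand (Timm10), chr7:19715380-19715679 on the minus strand (Tomm40) and chr10:80900920-80901219 on the minus strand (Timm13).
Timm8a1: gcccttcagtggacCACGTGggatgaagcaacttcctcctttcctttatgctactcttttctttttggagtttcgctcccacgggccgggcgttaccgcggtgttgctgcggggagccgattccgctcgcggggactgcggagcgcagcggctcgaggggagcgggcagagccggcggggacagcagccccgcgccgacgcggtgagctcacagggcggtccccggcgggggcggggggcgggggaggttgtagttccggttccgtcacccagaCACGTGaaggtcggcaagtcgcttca
Timm9: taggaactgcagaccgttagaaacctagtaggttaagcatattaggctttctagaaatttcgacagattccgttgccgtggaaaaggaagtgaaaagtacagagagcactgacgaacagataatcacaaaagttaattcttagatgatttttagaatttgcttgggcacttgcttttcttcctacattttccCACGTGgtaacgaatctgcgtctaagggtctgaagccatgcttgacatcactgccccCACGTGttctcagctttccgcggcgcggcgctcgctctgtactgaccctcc
Timm10: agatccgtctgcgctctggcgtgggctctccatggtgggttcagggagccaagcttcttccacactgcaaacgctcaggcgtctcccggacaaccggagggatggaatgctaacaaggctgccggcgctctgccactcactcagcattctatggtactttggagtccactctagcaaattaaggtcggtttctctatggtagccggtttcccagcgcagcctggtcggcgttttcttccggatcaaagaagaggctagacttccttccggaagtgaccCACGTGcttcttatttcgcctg
Tomm40: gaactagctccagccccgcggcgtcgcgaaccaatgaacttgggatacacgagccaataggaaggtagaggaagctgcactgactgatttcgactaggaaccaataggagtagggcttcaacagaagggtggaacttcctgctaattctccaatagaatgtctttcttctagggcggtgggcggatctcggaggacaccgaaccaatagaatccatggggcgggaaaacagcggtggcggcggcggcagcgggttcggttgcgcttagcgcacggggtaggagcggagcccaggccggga
Timm13: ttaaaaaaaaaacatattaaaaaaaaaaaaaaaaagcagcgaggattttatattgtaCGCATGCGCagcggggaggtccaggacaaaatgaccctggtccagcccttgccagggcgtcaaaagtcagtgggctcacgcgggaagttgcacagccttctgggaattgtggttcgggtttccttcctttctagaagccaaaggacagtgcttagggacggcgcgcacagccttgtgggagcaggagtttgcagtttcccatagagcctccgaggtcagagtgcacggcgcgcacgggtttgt

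**Figure D2:**
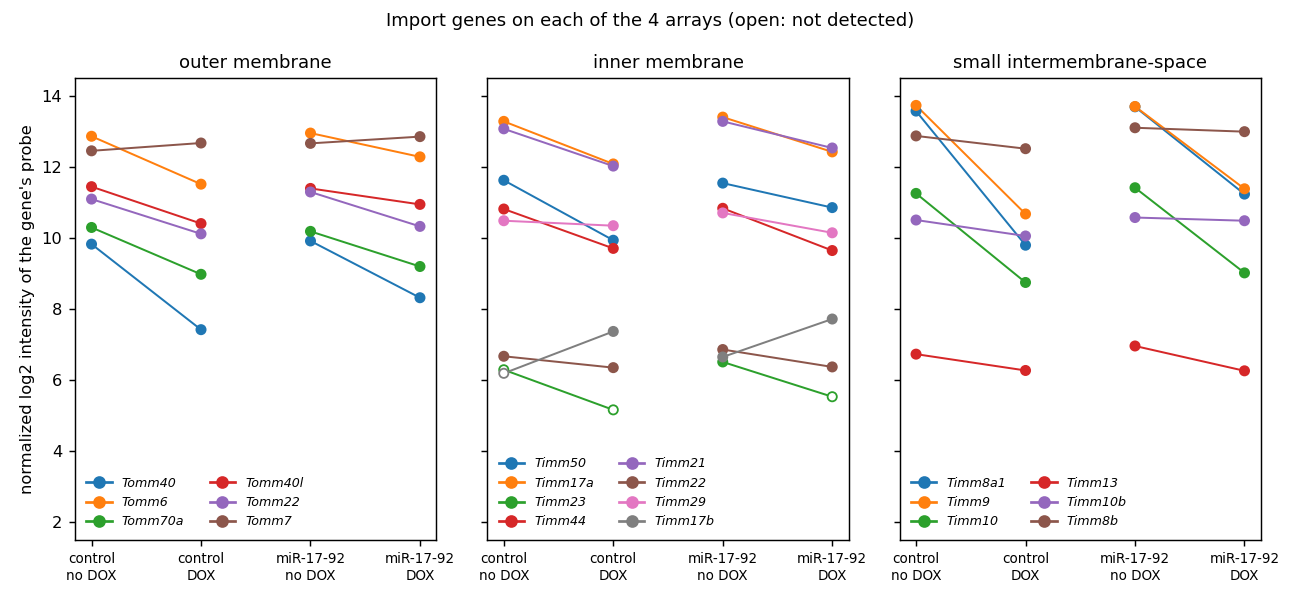
Normalized log2 intensity of each import gene's probe on the 4 arrays, by class, with lines joining no DOX to DOX within a line and open points where the probe was not detected. Levels of different genes come from different probes and are not comparable with each other, while within a gene the steep lines of Timm8a1, Timm9, Timm10 and Tomm40 stand beside the flat lines of Tomm7 and Timm8b.

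At the outer membrane, the TOM channel gene was the lowest by its brightest probe. Tomm40, which encodes the pore, had log2 intensities of 9.83 and 9.92 without DOX and of 7.42 and 8.32 with DOX, control cells first. Its signal was thus lower by 5.30-fold in control and 3.04-fold in miR-17-92 cells. Its second probe was detected on 1 of 4 arrays and gives no usable ratio. In the control cells its log2 ratio was -1.80 without background correction and -1.88 with the authors' processed values. With the mean of the detected probes, which takes in that second probe, it was -1.39. Tomm6 (-1.66) and Tomm22 (-1.48) were then lower. Tomm40l, the gene of a second pore-forming isoform, went from 11.45 to 10.41 in the control cells and from 11.40 to 10.95 in the miR-17-92 cells. It was 2.06-fold and 1.37-fold lower. Its dimmer probe, detected on all 4 arrays, gave log2 -0.67 and 0.01, within 2-fold in both lines. In the control cells the reported ratio also moved inside 2-fold without background correction (-0.98) and with median scaling (-0.94). Tomm40l was not among the members that fell in the fit over both lines.

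Tomm70a encodes the receptor that takes up carrier proteins from cytosolic chaperones. It went from 10.30 to 8.98 in the control cells and from 10.19 to 9.20 in the miR-17-92 cells, which is 2.49-fold and 1.98-fold lower. Tomm22, the gene of the central receptor, was lower by 1.98-fold in control and 1.96-fold in miR-17-92 cells, just inside 2-fold, and its dimmer probe gave -1.97 and -1.55. The members nearest the 2-fold line in the control cells were Tomm22 at log2 -0.98, Tomm40l at -1.04 and Timm21 at -1.05.

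The small TOM subunits did not move together. Tomm6 went from 12.87 to 11.52 in the control cells and from 12.96 to 12.29 in the miR-17-92 cells, 2.55-fold and 1.59-fold lower. Its dimmer probe, also detected on all 4 arrays, gave -1.98 and -1.34, past 2-fold in both lines. Tomm7, whose product tunes the stability of the complex and holds the kinase PINK1 on damaged mitochondria, went from 12.46 to 12.68 and from 12.67 to 12.86. Its ratios of log2 0.22 and 0.19 were smaller than the spread per probe, and their sign turned to -0.13 and -0.10 with the authors' processed values. Of the 6 outer-membrane genes, 4 were at least 2-fold lower in the control cells and 1 in the miR-17-92 cells. Among all genes the shares were 18% and 12.8%. Both counts depend on the probe chosen. By the dimmer probe, Tomm6 and Tomm22 were more than 2-fold lower in both lines, and Tomm40l was within 2-fold in both.

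At the inner membrane, 5 of 8 genes were at least 2-fold lower in the control cells, Timm23 included, and 1 in the miR-17-92 cells. The same shares of all genes, 18% and 12.8%, apply here. Timm50, the gene of the TIM23 receptor that receives presequences from TOM, went from 11.63 to 9.94 in the control cells and from 11.55 to 10.86 in the miR-17-92 cells. It was 3.24-fold lower in the former and 1.61-fold lower in the latter, the largest gap between the lines in this class. Timm44, which tethers the Hsp70 motor to the channel, was 2.15-fold and 2.28-fold lower. It was the 1 inner-membrane gene at least 2-fold lower in both lines, and its 3 probes gave between -1.45 and -1.11 in the control cells. Timm21, a TIM23 subunit that in yeast links the translocase to the respiratory chain, was 2.07-fold and 1.68-fold lower, with 4 probes between -1.32 and -0.92 in the control cells.

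The Timm17 paralogues, alternative core subunits of TIM23, had opposite signs. Timm17a went from 13.29 to 12.09 in the control cells and from 13.41 to 12.43 in the miR-17-92 cells, 2.30-fold and 1.97-fold lower. Timm17b was undetected in the control cells without DOX, where its probe read 6.19, and read 7.37 with DOX, at least 1.69-fold higher. In the miR-17-92 cells it went from 6.65 to 7.72, 2.10-fold higher. Its signal was dim, and the higher value dropped inside 2-fold in both lines without background correction (0.57 and 0.58), with an offset of 50 (0.90 and 0.87) and with the authors' processed values (0.42 and 0.51). It stayed above 0 in all of these, and its second probe, detected on 2 arrays, gave 0.45 and 1.41.

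Timm23, the channel gene, was detected on 1 array, that of the miR-17-92 cells without DOX, with log2 intensities of 6.29 and 5.16 in the control cells and 6.51 and 5.53 in the miR-17-92 cells. No fold is given for the control cells, and the bound for miR-17-92 cells is at least 1.25-fold lower. Timm22, the carrier channel gene, was dim and gave log2 -0.32 and -0.49, and in the control cells its sign turned to 0.15 with median scaling. Timm29, the gene of a TIM22 subunit described in human cells, went from 10.49 to 10.35 in the control cells and from 10.71 to 10.15 in the miR-17-92 cells. Its ratio in the control cells, -0.14, was within the spread per probe and turned to 0.03 with median scaling. Timm22 and Timm29 were thus within 2-fold in both lines, unlike Timm9 and Timm10, which serve the same route. A fall as large as that of Timm9 or Timm10 would have left the dim Timm22 probe undetected, so for Timm22 the contrast cannot be read.

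By class, the median log2 ratio of DOX in the control cells was -1.18 at the outer membrane, -1.08 at the inner membrane and -1.49 among the small genes. In the miR-17-92 cells the medians were -0.82, -0.72 and -1.51. The ranges overlapped. In the control cells they ran from -2.41 to 0.22 at the outer membrane, from -1.70 to 1.19 at the inner membrane and from -3.78 to -0.36 among the small genes. The median of the small genes falls in a gap between their members, since 3 of 6 were 2-fold lower in each line and the others were not. With 6 to 8 genes a class and 1 array a group, the difference between classes was not tested. Tomm34, outside the classes, stood at 10.42 and 10.32 without DOX and at 10.54 and 9.74 with DOX, with ratios of log2 0.13 in the control cells and -0.58 in the miR-17-92 cells.

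Of 23 other genes of the import pathway, 18 were detected, and 9 of these were at least 2-fold lower in the control cells and 6 in the miR-17-92 cells, with none 2-fold higher (medians -0.93 and -0.86). Among all detected genes 18% and 12.8% were at least 2-fold lower and 19.9% and 14.8% higher, control cells first. The lowest of the 18 was Chchd4, whose product MIA40 oxidizes and traps the small Timm proteins. It went from 11.53 to 8.32 in the control cells and from 11.53 to 8.83 in the miR-17-92 cells, 9.23-fold and 6.52-fold lower. Gfer, which encodes the oxidase that recharges MIA40, was 3.21-fold and 2.18-fold lower. Both genes of this relay had ratios past 2-fold in both lines. Of the small Timm genes, Timm8a1, Timm9 and Timm10 were past 2-fold in both lines too, and Timm13, Timm10b and Timm8b within it. The Timm13 probe lay near background.

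In the motor, Hspa9, the gene of mitochondrial Hsp70, was lower by 4.01-fold in control and 2.69-fold in miR-17-92 cells. Dnajc15, which encodes a J-protein of the motor, was 3.70-fold and 2.33-fold lower, while its counterpart Dnajc19 was 2.29-fold and 1.47-fold lower. Mipep, the gene of an intermediate peptidase of the matrix, was 3.31-fold and 2.34-fold lower, and Mtx1, of the outer-membrane sorting machinery, 2.64-fold and 1.82-fold lower. Of the 7 genes grouped here with the motor, Romo1 included, 4 were 2-fold lower in the control cells and 2 in the miR-17-92 cells. The shares of all genes were 18% and 12.8%. Grpel1, Romo1 and Pam16 stayed within 2-fold in both lines. Pam16 had opposite signs, at log2 -0.62 in the control cells and 0.45 in the miR-17-92 cells.

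Among other mitochondrial genes, 43 of 73 mitochondrial ribosomal protein genes were at least 2-fold lower in the control cells (median -1.14) and 19 in the miR-17-92 cells (median -0.64). Of 70 nuclear-encoded genes of the respiratory chain and ATP synthase, 10 were 2-fold lower and 1 higher in the control cells (median -0.32), and 2 and 1 in the miR-17-92 cells (median 0.04). Over all detected genes the shares were 18% and 12.8% lower and 19.9% and 14.8% higher, control cells first, with medians of 0.06 and 0.09. The import genes had medians close to those of the mitochondrial ribosome and below those of the respiratory chain. These differences between lists were not tested.

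**Figure D3:**
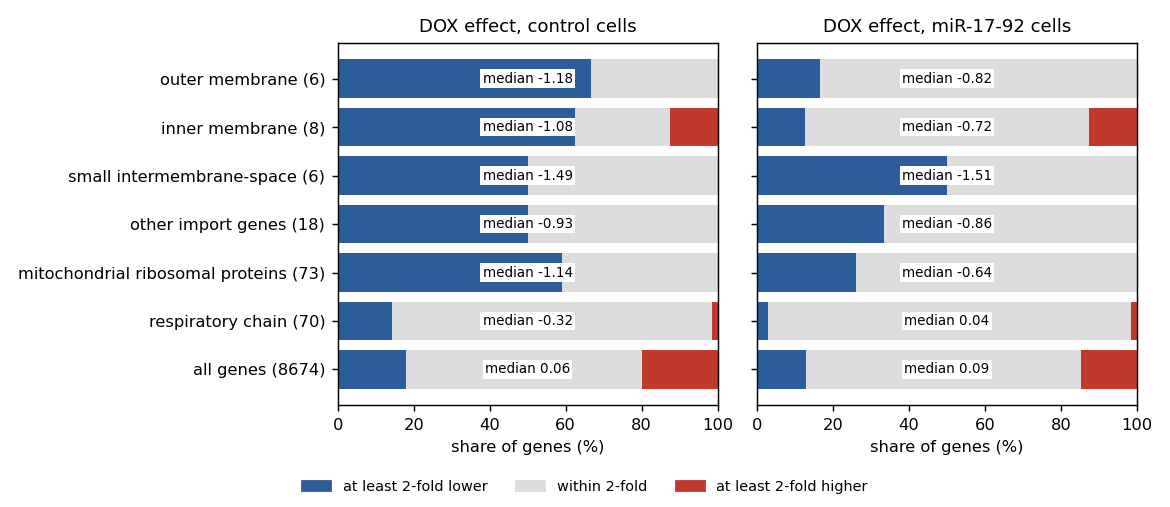
Share of detected genes at least 2-fold lower (blue), within 2-fold (grey) and at least 2-fold higher (red) with DOX in each list, in control cells (left) and miR-17-92 cells (right), with the number of genes in brackets and the median log2 ratio on each bar. The import classes resemble the mitochondrial ribosomal proteins (median -1.14 in control cells) more than the respiratory chain (-0.32).

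With MYC on, the import genes hardly differed between the lines. All 21 were within 2-fold, from log2 -0.11 (Tomm70a) to 0.46 (Timm17b, undetected in the control cells), with a median of 0.12 against 0.00 over all genes. Among all genes 1.04% were lower by 2-fold or more and 1.18% higher. Of the 19 members detected on both arrays, 14 lay above 0, but 12 were within the spread per probe of 0.19 for this comparison. Timm8a1 differed by 0.12, Timm9 by -0.03, Timm10 by 0.16 and Tomm40 by 0.10. The sign for Timm9 turned to 0.02 with the authors' processed values.

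With MYC off, 17 of 21 import genes lay above 0 in the miR-17-92 cells relative to the control cells, with a median of 0.35 and a range from -0.81 to 1.44. Over all genes 4346 of 8674 lay above 0, with a median of 0.00. Of the 21 members 1 was past 2-fold, against 6.36% of all genes at least 2-fold higher and 4.83% lower. That gene was Timm8a1, 2.71-fold higher (11.24 against 9.80). Timm50 was 1.90-fold higher, Tomm40 1.87-fold, Tomm6 1.71-fold, Timm9 1.64-fold and Tomm40l 1.45-fold. Timm10, at 1.21-fold, and Timm44, at 1.04-fold lower, were within the spread per probe of 0.24 or close to it. Tomm34 went the other way, 1.75-fold lower. In the same comparison 62 of 73 mitochondrial ribosomal protein genes (median 0.31) and 64 of 70 respiratory chain genes (median 0.38) lay above 0, so a shift of this size was not limited to the import genes. Both arrays of this comparison shared a slide.

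**Figure D4:**
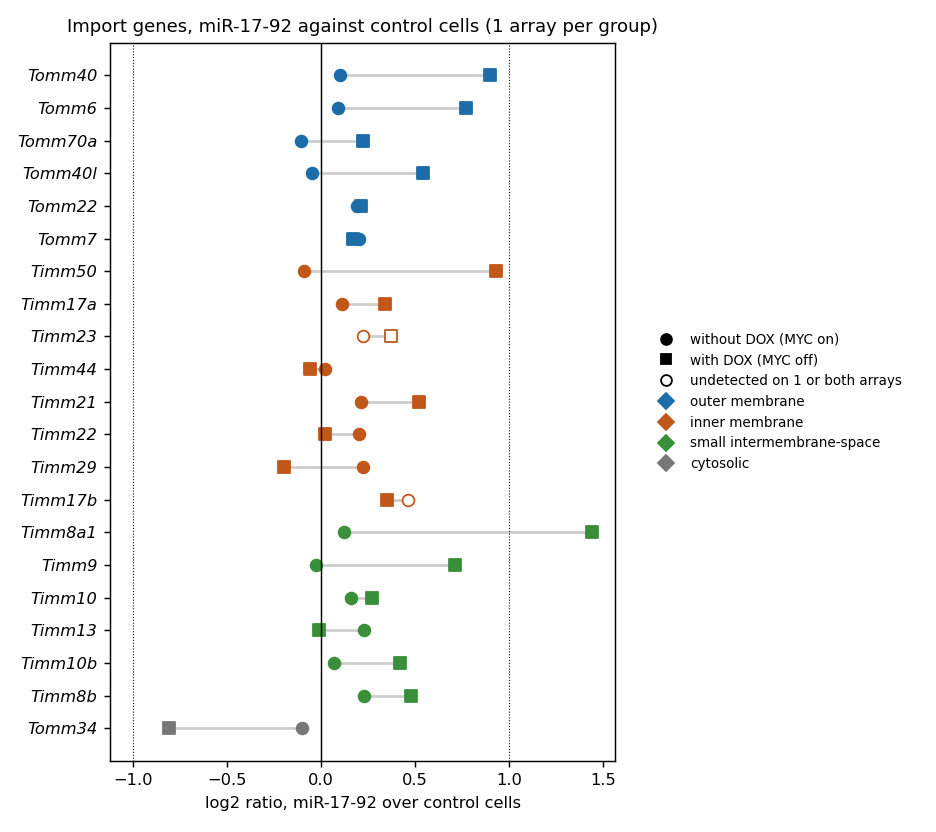
Log2 ratio of miR-17-92 over control cells for each import gene without DOX (circles) and with DOX (squares), 1 array per group, with open symbols where 1 or both arrays did not detect the probe. The circles lie between -0.11 and 0.46, while the squares reach 1.44 for Timm8a1 and -0.81 for Tomm34.

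The difference of the DOX ratios (miR-17-92 cells minus control cells) was above 0 for 14 of 21 members, with a median of 0.23, and the median over all genes was 0.00. It was at least 2-fold above 0 for Timm8a1 (1.32) and Timm50 (1.01) and for no member at least 2-fold below it, against 7.1% above and 4.82% below among all genes. Timm50 lies at the line itself, and its value was 0.93 without background correction or with the authors' processed values. Outer-membrane genes had a median difference of 0.46, small genes 0.31 and inner-membrane genes 0.03. Tomm40 (0.80), Timm9 (0.74), Tomm6 (0.68) and Tomm40l (0.59) were also less reduced in the miR-17-92 cells, whereas Timm10 (0.12), Timm44 (-0.08) and Tomm22 (0.01) had nearly the same DOX ratio in both lines. Of the 12 members past 2-fold lower in the control cells, 11 had a higher ratio in the miR-17-92 cells, the exception being Timm44. Choosing members by the control value tilts such a count towards the other line. The matching share over all genes was not computed, so the 11 have no background to be read against. Over all genes, those at least 2-fold lower numbered 1565 in the control and 1108 in the miR-17-92 cells. A higher DOX ratio in the miR-17-92 cells was found for 4322 of 8674 genes. The same held for 57 of 73 mitochondrial ribosomal protein genes (median difference 0.34) and 63 of 70 respiratory chain genes (0.39). Both lists thus shifted the same way as the import genes, with higher medians, and the gap between lists was not tested. For 9 of the 19 members detected on all 4 arrays, the difference was within the spread per probe of 0.31.

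**Figure D5:**
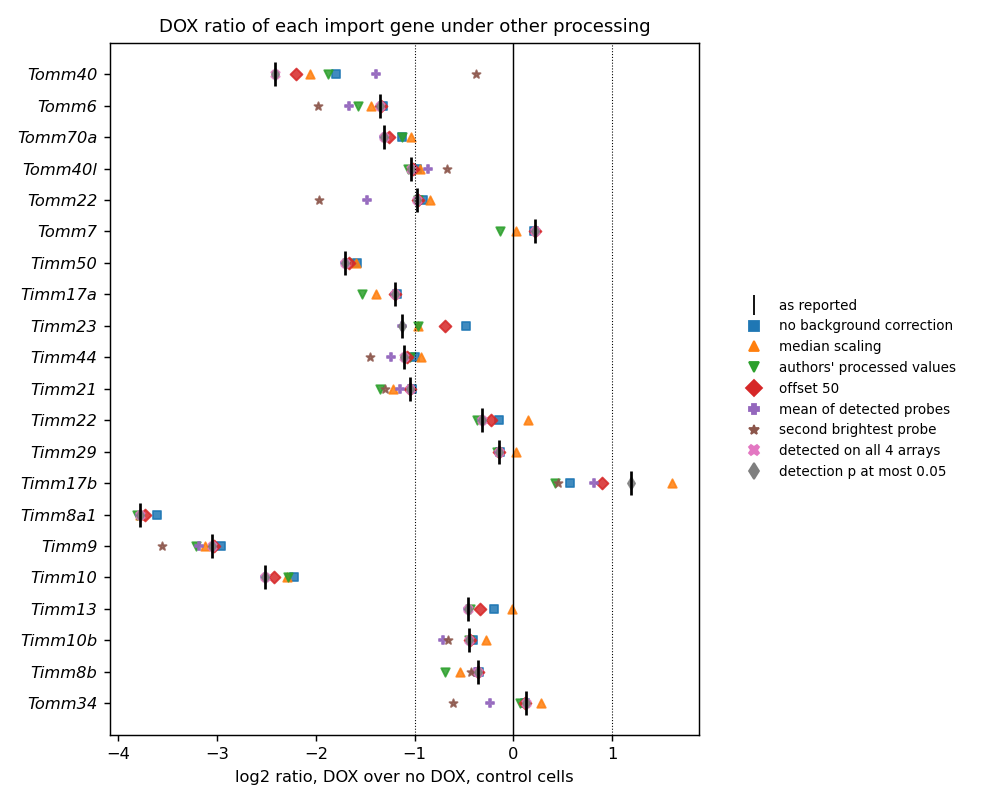
Log2 ratio of DOX over no DOX in control cells for each import gene as reported (black bars) and under 8 other ways of processing (coloured symbols). Timm8a1 stays between -3.81 and -3.61, Timm9 between -3.56 and -2.96 and Timm10 between -2.51 and -2.22, whereas Tomm40 starts at -2.41 and its symbol nearest 0 is a second probe detected on 1 array.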

How the data were processed

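Total RNA was labelled as biotinylated cRNA and read on Illumina bead arrays, per the labels' protocols, and GenomeStudio is named in the submitters' processing notes. The deposited table without normalization gives a linear intensity per probe, with a deposited detection p-value per probe and array. Detection columns carry slide positions and were linked to the signal they rank (0 rank breaks). The authors' processed intensity values are a linear rescaling per array (r = 1), with medians of 146.9 and 143.2 without DOX and 100.9 and 104.6 with DOX. They are linear and not centred, and how they were scaled is not stated in the sources used here.

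From the deposited intensity, limma 3.58.1 (R 4.3.3) corrected the background by normexp from the detection p-values, with an offset of 16, then log2 and quantile normalization over the 4 arrays. Ratios are therefore relative to other genes. Of the probes, 34885 had 1 gene, 18 several and 10378 none here, and 34807 were matched to current symbols by gene number. The brightest detected probe stood for each gene, and 2-fold (log2 of 1) was the threshold of size. An undetected dim side gives a lower bound. The procedure was tested on simulated data. Every member is named, and the 4 intensities are given for up to 4 members per class with the largest control DOX ratio, the one nearest 0 and those 2-fold different between lines. Tomm34 was set out likewise. Members and lists were chosen with earlier results of these data known. With 1 array per group no test within a line was possible, and the number of arrays limits the precision. DOX over both lines was tested by limma with line as a term, a fit chosen after seeing the data.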

Additional observations from a re-analysis of the deposited data

Results flagged for a closer look

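Tomm34 was the only one of the 21 members with opposite signs of the DOX ratio in the lines among those detected on all 4 arrays, at log2 0.13 in the control cells and -0.58 in the miR-17-92 cells, a difference of -0.71. The difference was not tested, since each group holds 1 array. Its second probe gave -0.61 and -1.03, below 0 in both lines, so the opposite signs rest on the brighter probe.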

How the results depend on the processing

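Each of 30 summaries (member counts, member and class medians in 5 comparisons) was recomputed under 8 alternatives. Of 240 values, 215 stayed within the spread per probe or, for counts, within 1.5 times. A detection p-value of at most 0.05 left every member ratio as reported. Detection on all 4 arrays kept 19 members, also with unchanged ratios, so agreement under these settings adds little. The count of members 2-fold higher with DOX, 1 in each line (Timm17b), became 0 without background correction, with the authors' processed values, with an offset of 50 and with detection required on all 4 arrays, and in the control cells also with the mean of the probes and with the second brightest probe. The count 2-fold above 0 in the difference of DOX ratios, 2 as reported, was 1 under median scaling, without background correction, with an offset of 50 and for the authors' processed values. The inner-membrane median in the control cells was -0.74 without background correction. The second brightest probe exists for 11 members only, which by itself changes the list: it gave 5 members 2-fold lower in the control cells with a member median of -0.67 and a small-gene median of -0.66, a small-gene median of -0.25 in the miR-17-92 cells, differences of 0.43 (inner membrane) and 0.67 (small genes), no member past 2-fold in the difference or between the lines with MYC off (0 each), and medians of -0.14 (outer) and 0.02 (inner) with MYC on. The sign of the DOX ratio was kept under every alternative by 17 of 21 members in the control cells and 18 of 21 in the miR-17-92 cells. The exceptions were Timm22, Timm29, Tomm34 and Tomm7 in the former and Timm10b, Tomm40l and Tomm7 in the latter. Median scaling moved the median of all genes in the control DOX comparison from 0.06 to 0.24, and the authors' values moved it to -0.13, while the member medians were -0.94 and -1.05. Over all genes, those 2-fold higher with DOX numbered 1722 and 1281 (control cells first), but 945 and 661 with the authors' values and 1141 and 754 without background correction. Those 2-fold above and below 0 in the difference numbered 616 and 418 (59.6% above), against 318 and 126 (71.6%) with the authors' values and 273 and 148 without background correction. Between the lines the 102 higher and 90 lower with MYC on became 6 and 3 with the authors' values and 8 and 5 without background correction, and the 552 and 419 with MYC off became 336 and 166, and 276 and 195. Each group holds 1 array, so no replicate could be left out. In the fit of DOX over both lines, the members that fell numbered between 11 and 13 under 7 of these alternatives, and the 1 that rose (Timm17b) became 0 with the authors' processed values and where detection on all 4 arrays was required. That fit was not run for the second brightest probe. Probes near background, such as those of Timm23, Timm17b, Timm13 and Timm22, limit what can be said of these genes.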
